A study of Mus musculus with 7 samples.

Results

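Superoxide dismutases, catalase and metallothioneins are the enzymes and metal-binding proteins with which cells dispose of superoxide, hydrogen peroxide and loosely held copper and zinc. The set described here holds 7 genes, Sod1, Sod2, Sod3, Ccs, Cat, Mt1 and Mt2, chosen by name out of 14641 genes counted in mouse hearts. They and the gene lists set beside them below were chosen with earlier results of these data known. Hearts came from 4 non-transgenic mice (NTG) and 3 mice that express full-length Nrf2 from a cardiac transgene (mNrf2-TG). All were male and C57BL/6J, with 1 library of heart lysate per mouse. The transgene stands under the αMHC promoter, which is active in cardiomyocytes, and the NTG mice were littermates without it. Age was given as 6 months in the label of the mNrf2-TG hearts and as 7 to 8 months in the design text, and the NTG labels gave none. The methods gave 6 to 7 months for transgenic mice and their littermates. The comparison asks how chronic Nrf2 activity in cardiomyocytes changed the cardiac transcriptome, here in these 7 genes.

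Superoxide dismutases convert superoxide into oxygen and hydrogen peroxide. Sod1 is the copper and zinc enzyme of the cytosol, Sod2 the manganese enzyme of the mitochondrial matrix, and Sod3 the secreted copper and zinc enzyme bound outside cells. Ccs is the chaperone that loads copper into Sod1. Catalase, encoded by Cat, breaks hydrogen peroxide down in peroxisomes. Mt1 and Mt2 are small cysteine-rich proteins that bind zinc and copper, and their genes are known to respond to metals through the factor Mtf1 and to glucocorticoids. Nrf2 is a transcription factor that binds antioxidant response elements (ARE) and is best known for inducing glutathione, thioredoxin and NADPH-producing genes.

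Of the 7 genes, Cat was higher in mNrf2-TG hearts by 1.81-fold, and Mt2, Mt1 and Sod2 were lower. Mt2 fell 4.16-fold and Mt1 1.69-fold, and Sod2 changed by −12.9%. Sod1, Sod3 and Ccs did not pass the test. The test was edgeR's quasi-likelihood test with Benjamini-Hochberg adjustment over 14637 genes, with an adjusted p under 0.05 as the threshold. Thus 4 of 7 members were called, where the share over all genes tested was 17.2%. With 1 heart left out in turn, 1 to 3 members were called, the fewest without mNrf2-TG replicate 19. Higher expression was called for 1 member, against 8.48% of all genes, and lower expression for 3 members, against 8.73% of all genes. The normalized counts of the groups did not overlap for 3 members, Cat, Sod2 and Mt2, while over all genes this held for 29.7%. With 7 members these shares are a description.

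**Figure D1:**
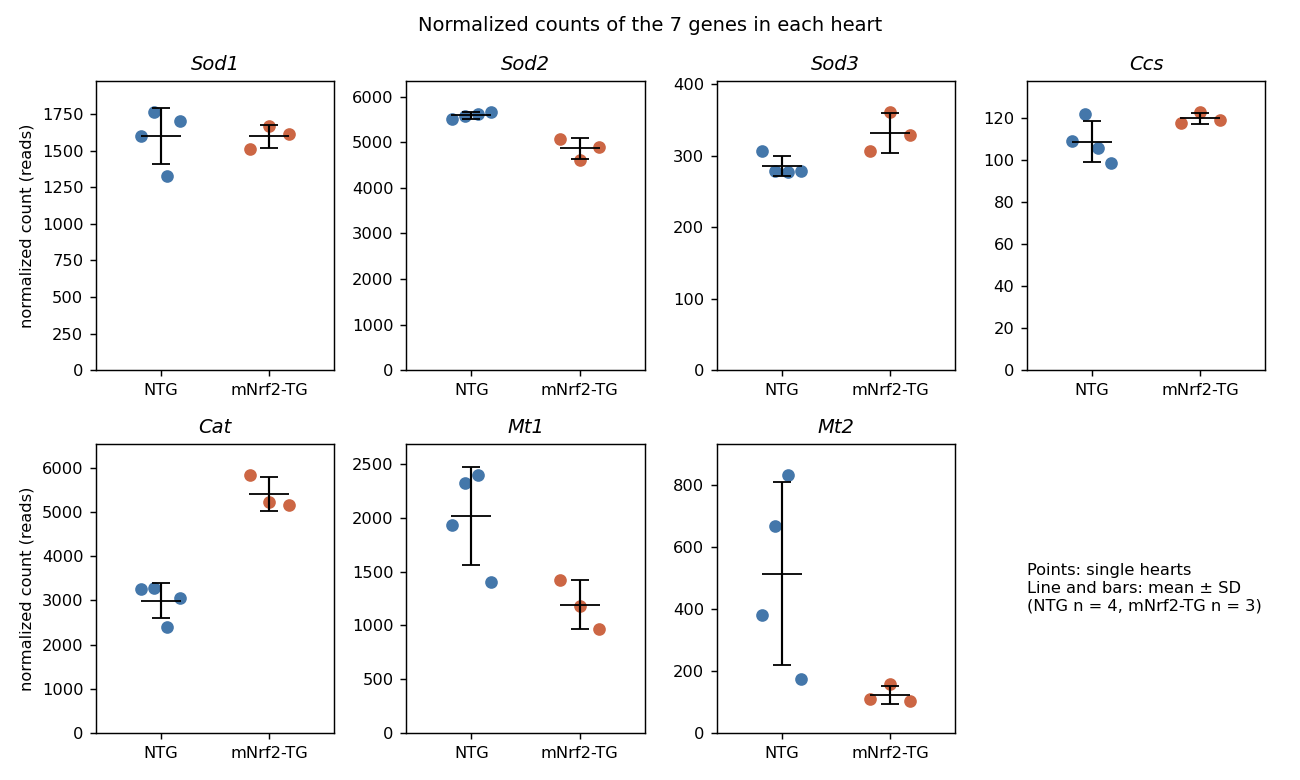
Normalized counts (reads, linear axes from 0) of the 7 genes in each of the 4 NTG and 3 mNrf2-TG hearts, with mean and SD. The 3 mNrf2-TG hearts lie above all NTG hearts for Cat (5165 to 5848) and below them for Sod2 and Mt2, while the NTG hearts alone spread from 173 to 833 for Mt2.

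Between 6534684 and 8405857 reads per library fell on the 14641 genes. Nfe2l2, the gene of Nrf2, was counted 729 to 1392 times per NTG heart and 10912 to 12839 times per transgenic heart, a 10.3-fold difference that includes reads of the transgene. The titles of the mNrf2-TG libraries begin with mWT, but the genotype label and Nfe2l2 place all 3 in the transgenic group. Markers of cardiomyocytes, 10 genes, had a summed CPM, which scales reads to a common library total, of 102286–105560 in NTG and 87845–89666 in mNrf2-TG hearts, with 4 genes lower and 1 higher. The macrophage markers summed to 312–393 CPM in NTG and 499–665 in mNrf2-TG hearts, with 6 of 8 higher, and the fibroblast markers to 1182–1507 and 1670–1792 CPM, with 5 of 8 higher and 1 lower. Without mNrf2-TG replicate 19, 2 fibroblast markers were called higher, and without NTG replicate 1, 2 cardiomyocyte markers were called lower. Endothelial markers summed to 952–1020 and 880–920 CPM, with 1 of 8 higher and 3 lower, and the sums of smooth muscle and red cell markers overlapped between groups. Over all genes tested, 8.48% were called higher and 8.73% lower. Adipocyte markers were at or under 0.844 CPM in every heart, with 2 of 6 tested. Atrium markers summed to only 2.39–5.21 CPM in NTG and 3.43–8.32 CPM in mNrf2-TG hearts, with 3 of 5 tested. The libraries thus held few reads of atrium markers, and their share of atrial tissue was not tested. The part of these shifts in the differences below was not tested, and in bulk tissue fewer cells of a type cannot be told apart from less RNA per cell.

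The sequences before the start sites of 4 members are shown because the members moved apart and because Nrf2 and Mtf1 bind short known motifs. They are from RefSeq (GRCm38.p6), cover the 250 bases before the start given there and are written 5′ to 3′ on the strand of the gene. In Mt1 and Mt2, the neighbouring genes that were both lower, capitals mark the core TGCNCNC of the metal response element, searched on both strands.
Mt1, chr8:94178839-94179088, plus strand: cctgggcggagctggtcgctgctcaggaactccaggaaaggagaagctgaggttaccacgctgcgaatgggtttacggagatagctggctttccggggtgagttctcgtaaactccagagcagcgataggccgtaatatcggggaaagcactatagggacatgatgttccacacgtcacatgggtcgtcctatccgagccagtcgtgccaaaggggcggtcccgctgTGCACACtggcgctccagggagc
Mt2, chr8:94172368-94172617, plus strand: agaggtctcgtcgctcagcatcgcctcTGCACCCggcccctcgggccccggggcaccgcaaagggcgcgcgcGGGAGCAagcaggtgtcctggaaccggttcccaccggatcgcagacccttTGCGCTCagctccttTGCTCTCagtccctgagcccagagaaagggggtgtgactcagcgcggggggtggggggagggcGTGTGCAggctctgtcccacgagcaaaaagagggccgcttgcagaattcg
In Cat, which was higher, and Sod1, which did not pass the test, capitals would mark the ARE core TGACNNNGC, also searched on both strands.
Cat, chr2:103485154-103485403, minus strand: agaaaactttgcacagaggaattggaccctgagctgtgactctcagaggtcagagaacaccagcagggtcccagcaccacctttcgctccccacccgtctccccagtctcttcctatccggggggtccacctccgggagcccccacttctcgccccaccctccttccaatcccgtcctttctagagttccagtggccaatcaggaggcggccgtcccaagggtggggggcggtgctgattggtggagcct
Sod1, chr16:90220512-90220761, plus strand: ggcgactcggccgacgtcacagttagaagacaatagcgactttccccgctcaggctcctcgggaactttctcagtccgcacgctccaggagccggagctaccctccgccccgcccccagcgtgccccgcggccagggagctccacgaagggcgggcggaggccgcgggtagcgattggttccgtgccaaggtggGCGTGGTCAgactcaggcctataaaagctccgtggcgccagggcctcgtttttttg

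The window of Mt2 held 5 matches to the metal response core, and that of Mt1 held 1, at −23. Positions are counted from the end of the window. Over 32851 RefSeq windows of the same length, 44.4% held at least 1 such match and 1.28% held at least 4. The matches in Mt2 lay between −223 and −50. Mt2 also held 1 ARE core, TGACTCAGC at −79, and Sod1 held 1 on the reverse strand, GCGTGGTCA at −56, against 10.2% of all windows. Neither core occurred in the windows of Cat and Sod2. The windows of Mt2 and Sod1 thus held an ARE core, those of Cat, Mt1 and Sod2 held none, and Sod3 and Ccs had no window. Whether this bears on the direction of change was not tested. These are matches of letters, and their use in the heart was not measured. Other annotated starts, from GENCODE, lie downstream of the windows, at 123 and 153 bases past the window of Mt1. Both GENCODE starts of Mt2 lie past its window, at 47 and 243 bases, so its positions are not distances from them. A second start of Cat lies 29 bases past its window, and the 8 annotated starts of Sod2 run from −992 to 27138 bases relative to the end of its window. The windows therefore do not cover all sequence before the annotated starts. Bases between the windows of Mt1 and Mt2 and their later starts were not searched. Their match counts therefore hold for the windows alone and do not rank the genes.

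Cat lies on chromosome 2 (GRCm38, chr2:103453849-103485160, minus strand). Its counts, scaled to a common library size as for all normalized counts here, were 3249, 3271, 2408 and 3061 in NTG replicates 1 to 4. In mNrf2-TG replicates 17, 18 and 19 they were 5848, 5223 and 5165. Every transgenic heart lay above every NTG heart, and NTG replicate 3 was the lowest of all. The mean rose from 2997 ± 404 (SD, n = 4) to 5412 ± 379 (SD, n = 3), a Log2FC of 0.85 with a standard error of 0.11 and a 95% interval of 0.62 to 1.09. The adjusted p in edgeR's quasi-likelihood test was 0.000925. Without NTG replicate 3 the Log2FC was 0.76 (adjusted p = 0.000116), and Cat was called in all 15 alternative analyses, with adjusted p up to 0.00727.

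Mt2 and Mt1 lie side by side on chromosome 8 (Mt2 at chr8:94172664-94173568 and Mt1 at chr8:94179082-94180327, both on the plus strand). The normalized counts of Mt2 were 380, 669, 833 and 173 in NTG replicates 1 to 4, and 110, 157 and 104 in mNrf2-TG replicates 17, 18 and 19. All transgenic hearts were lower than all NTG hearts, but NTG replicate 4, at 173, was close to mNrf2-TG replicate 18, at 157. Mt2 had the widest spread among NTG hearts of the 7 members, with a coefficient of variation of 57.3%. The mean was 514 ± 294 (SD, n = 4) in NTG and 124 ± 28.8 (SD, n = 3) in mNrf2-TG hearts, a Log2FC of −2.06 (standard error 0.46, 95% interval −3.07 to −1.04) with an adjusted p of 0.0141. The call was lost without mNrf2-TG replicate 17 (adjusted p = 0.061) or replicate 19 (adjusted p = 0.0575), with the Log2FC between −2.34 and −1.73 whichever heart was left out. Exons of Mt2 overlap those of Gm45774 on the opposite strand by 432 bases, and 45.8% of its stretches of 50 bases also occur there. Whether strand was used in counting is not given in the sources used here, so reads of the pair cannot be told apart.

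Mt1 had normalized counts of 1935, 2330, 2403 and 1406 in NTG replicates 1 to 4, and 1427, 1185 and 970 in mNrf2-TG replicates 17, 18 and 19. Here the groups overlapped, since NTG replicate 4 lay just below mNrf2-TG replicate 17, and 2 of 3 transgenic hearts were below every NTG heart. The mean fell from 2018 ± 457 (SD, n = 4) to 1194 ± 228 (SD, n = 3), with a Log2FC of −0.76 (standard error 0.19, 95% interval −1.17 to −0.34) and an adjusted p of 0.0211. Without NTG replicate 2, mNrf2-TG replicate 18 or mNrf2-TG replicate 19 the adjusted p was 0.0595, 0.067 and 0.0808. Without NTG replicate 3, in which both metallothioneins were highest, the Log2FC was −0.66 for Mt1 (adjusted p = 0.025) and −1.73 for Mt2 (adjusted p = 0.012).

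The NTG hearts stood in the same order for both metallothioneins, with replicate 4 lowest, then 1, 2 and 3. That order was found in 6.97% of the 9667 genes with a mean of at least 50 reads per library. The ratio of Mt1 to Mt2 reads within a heart was 5.09, 3.48, 2.88 and 8.11 in NTG replicates 1 to 4, and 13.0, 7.57 and 9.30 in mNrf2-TG replicates 17 to 19. Mt1 thus outnumbered Mt2 in every heart, and the 2.15-fold higher ratio in transgenic hearts did not pass a two-sided exact permutation test (p = 0.0857, adjusted over 5 ratios p = 0.214). With 35 ways to split the hearts, 0.0286 is the smallest p this test can give.

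Within 250 kb of the pair, Herpud1, an endoplasmic reticulum stress gene, was lower (Log2FC −0.65, adjusted p = 0.0178). Mt3, the brain-type metallothionein, was not called, with a Log2FC of 0.20 (adjusted p = 0.821) and a mean of 5.14 reads per library.

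Sod2, at chr17:13006846-13040063 on the plus strand, had the most reads of the superoxide dismutases. Its normalized counts were 5499, 5570, 5610 and 5661 in NTG replicates 1 to 4 and 5076, 4617 and 4896 in mNrf2-TG replicates 17 to 19. The NTG hearts differed by little, with a coefficient of variation of 1.22%, and all 3 transgenic hearts were lower. The mean went from 5585 ± 68.4 (SD, n = 4) to 4863 ± 231 (SD, n = 3), a Log2FC of −0.20 (standard error 0.06, 95% interval −0.33 to −0.07) with an adjusted p of 0.0468. These counts are of RNA, and the authors reported raised SOD2 protein by immunoblot. The RNA call was at the edge of the threshold. It was lost whichever of the 7 hearts was left out (adjusted p 0.0551 to 0.152), and also when libraries were scaled by their totals alone (adjusted p = 0.0967), while the direction stayed. Of the stretches of 50 bases in Sod2 exons, 21% also occur in other annotated genes, chiefly AC166110.4 and Rps6ka2, and how the counting treated such reads is not given in the sources used here.

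Sod1, at chr16:90220754-90226329 on the plus strand, had normalized counts of 1602, 1764, 1328 and 1703 in NTG replicates 1 to 4 and 1513, 1671 and 1612 in mNrf2-TG replicates 17 to 19. The transgenic hearts lay inside the NTG range. Both groups had a mean of 1599, with an SD of 193 in NTG (n = 4) and 80 in mNrf2-TG hearts (n = 3). The adjusted p was 0.997, and the 95% interval of the Log2FC ran from −0.22 to 0.22, so changes within that interval are not excluded. Of its stretches of 50 bases, 3.42% also occur in Gm8566.

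Sod3, at chr5:52363791-52371418 on the plus strand, had normalized counts of 306, 279, 277 and 278 in NTG replicates 1 to 4 and 306, 361 and 329 in mNrf2-TG replicates 17 to 19. NTG replicate 1 stood above the other NTG hearts and level with mNrf2-TG replicate 17, and 2 of 3 transgenic hearts were above every NTG heart. The Log2FC was 0.22 (standard error 0.09, 95% interval 0.03 to 0.41) with an unadjusted p of 0.0275 and an adjusted p of 0.105 in edgeR's quasi-likelihood test. The gene was not called in any of 15 alternative analyses, with adjusted p from 0.0826 to 0.315.

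Ccs, at chr19:4825366-4839332 on the minus strand, was the member with the fewest reads. Normalized counts were 109, 122, 106 and 98.6 in NTG replicates 1 to 4 and 118, 123 and 119 in mNrf2-TG replicates 17 to 19. NTG replicate 2 reached the transgenic values and the other NTG hearts were lower. The Log2FC was 0.14 with a 95% interval of −0.11 to 0.38 and an adjusted p of 0.431.

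**Figure D2:**
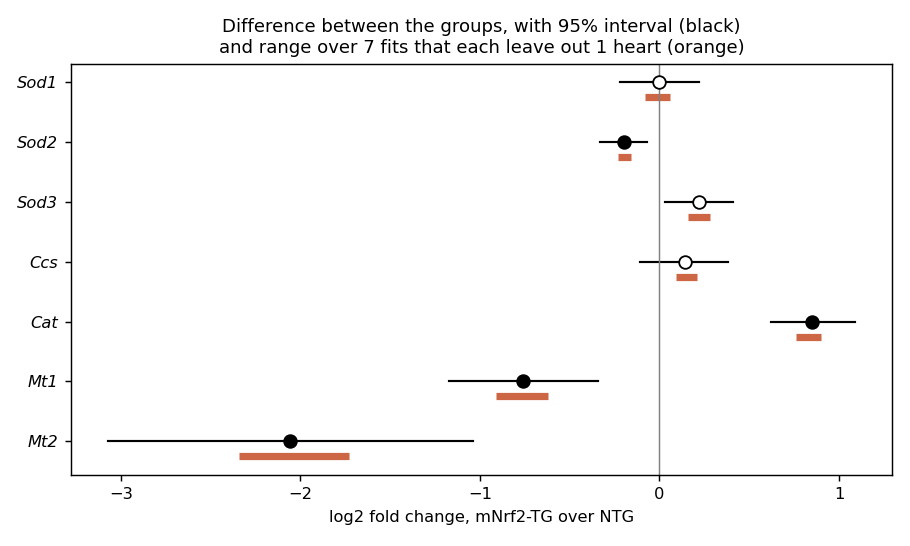
Log2FC of mNrf2-TG over NTG for the 7 members (filled: adjusted p under 0.05), with its 95% interval in black and, in orange, the range over the 7 fits that each leave out 1 heart. The intervals of Cat, Sod2, Sod3, Mt1 and Mt2 leave out 0, those of Sod1 and Ccs include it, and Mt2 has the widest interval, −3.07 to −1.04.

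Ratios within a heart compare members without a scaling between libraries. The ratio of Cat to Sod1 reads was 2.03, 1.85, 1.81 and 1.80 in NTG replicates 1 to 4 and 3.87, 3.13 and 3.20 in mNrf2-TG replicates 17 to 19. The groups did not overlap, and the ratio was 1.81-fold higher in transgenic hearts (two-sided exact permutation p = 0.0286, adjusted over 5 ratios p = 0.143). The unadjusted p is the smallest this test can give. With only 1 of the 5 ratios there, its adjusted p could not fall under 0.05. NTG replicate 3, with the lowest Cat and the lowest Sod1, did not stand apart in this ratio. For Sod2 over Sod1 the log2 ratio differed by −0.21 (exact permutation p = 0.171), for Sod3 over Sod1 by 0.21 (p = 0.2) and for Ccs over Sod1 by 0.14 (p = 0.314).

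**Figure D3:**
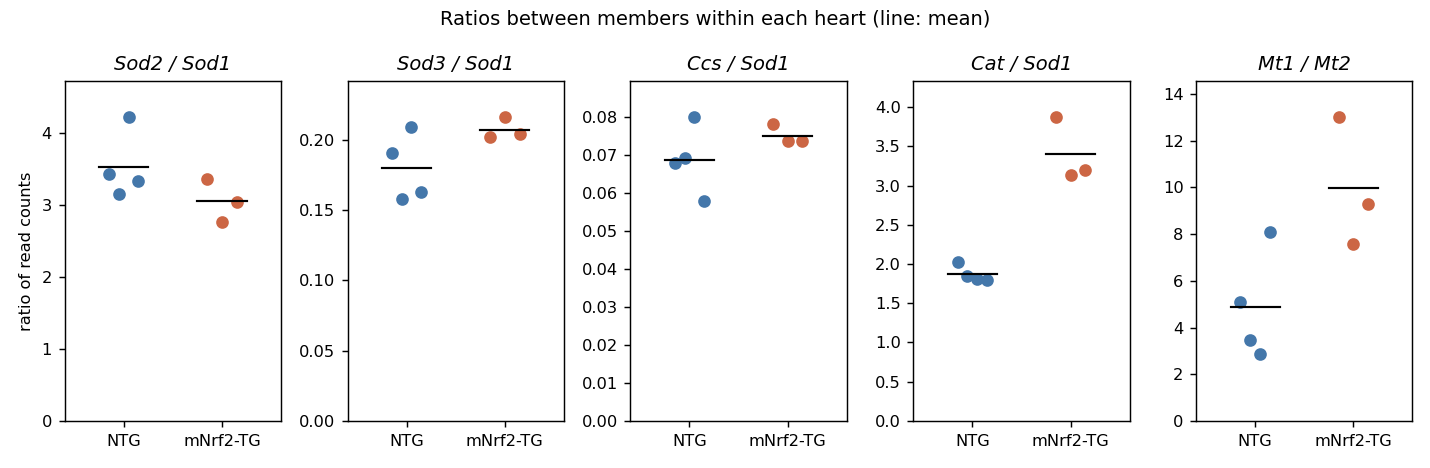
Ratios of read counts between members within each heart (linear axes from 0, points are hearts, lines are group means). The 3 mNrf2-TG hearts (3.13 to 3.87) lie above all NTG hearts (1.80 to 2.03) for Cat over Sod1, and the groups overlap in the other 4 ratios.

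Levels were compared between genes as CPM per kilobase of annotated exon. On this scale the NTG means were 215 ± 48.7 for Mt1, 152 ± 20.6 for Cat, 116 ± 66.5 for Mt2, 74.2 ± 0.908 for Sod2, 53.5 ± 6.45 for Sod1, 10.1 ± 0.492 for Sod3 and 8.13 ± 0.741 for Ccs (SD, n = 4). Mt2 took places 2 to 5 depending on the heart, so its neighbours in this order were not separated beyond the spread, and Mt1 and Cat exchanged the first place between hearts. In mNrf2-TG hearts Cat had the highest level, 275 ± 19.3, above Mt1 at 127 ± 24.3 (SD, n = 3), and Mt2, at 27.9 ± 6.5, lay below Sod1 and Sod2. The first place of Cat is lost with the principal transcript, where the mNrf2-TG means were 331 for Sod1, 289 for Mt1 and 275 for Cat. The level of Sod1 depends strongly on the length used. Its exon union of 3970 bases includes a retained-intron transcript, and over the 641 bases of the principal transcript, a length chosen after seeing the data, the NTG level was 331 CPM per kilobase. Sod1 then made up 66.8% to 72.9% of the summed level of the 3 dismutases in NTG hearts, where the exon union gave 34.5% to 41.3%. On the same scale Mt1 was at 489, Sod2 at 127 and Ccs at 13.6, and differences between groups for one gene are not affected by this choice.

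Genes that supply copper, the metal of Sod1 and Sod3, were called in both directions. Of 11 tested genes, 2 were higher and 1 was lower, which is 27.3% called beside 17.2% of all genes, with a median Log2FC of −0.03. Slc31a2, a copper transporter of internal membranes, had a Log2FC of 0.42 (adjusted p = 0.028), Cox19, which serves copper delivery in mitochondria, 0.38 (adjusted p = 0.029), and Cp, the copper-carrying ferroxidase ceruloplasmin, −0.44 (adjusted p = 0.0135). The calls of Slc31a2 and Cox19 were each lost when 1 of 4 hearts was left out, so that no gene of the list was called higher without NTG replicate 1, mNrf2-TG replicate 17 or mNrf2-TG replicate 18. Slc31a1, the main copper importer, had a Log2FC of −0.13 (adjusted p = 0.226), and Atox1, the chaperone that hands copper to the exporters, one of 0.27 (adjusted p = 0.0877).

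Of 22 tested genes of zinc sensing and transport, 1 was higher and 1 lower, which is 9.09% called beside 17.2% of all genes, and the median Log2FC was 0.10. Mtf1, the zinc sensor that drives metallothionein genes, had normalized counts of 205 to 278 in NTG and 215 to 241 in mNrf2-TG hearts, with a Log2FC of −0.06 (adjusted p = 0.773). Slc30a1, a zinc exporter that is itself an Mtf1 target, had a Log2FC of −0.20 (adjusted p = 0.182). The zinc importer Slc39a14 was lower (Log2FC −0.29, adjusted p = 0.0197), a call lost without mNrf2-TG replicate 18 or 19. Slc39a11, with 18.6 to 41.4 normalized counts, was higher (Log2FC 0.70, adjusted p = 0.0466), but not without any 1 of the 7 hearts (adjusted p 0.0589 to 0.133).

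Most genes of the glucocorticoid response list were lower, and a cause shared with the metallothioneins was not tested. Of 12 tested, 9 were lower and the other 3 were not called, with a median Log2FC of −0.96, beside 8.73% of all genes called lower. When each heart was left out in turn, 7 to 10 were lower. Among the called genes the largest falls were in Ddit4, an inhibitor of mTOR signalling (Log2FC −1.84, adjusted p = 0.00257), Errfi1, a feedback inhibitor of EGF receptors (−1.57, adjusted p = 4.97e-05), and Cebpd, a transcription factor (−1.48, adjusted p = 0.0103). Fkbp5, a co-chaperone of the receptor and a standard readout of glucocorticoid action, had 551, 774, 1349 and 458 normalized counts in NTG replicates 1 to 4 and 343, 384 and 407 in mNrf2-TG replicates 17 to 19. Its NTG order was that of Mt1 and Mt2, an order found in 3 of the 11 glucocorticoid response genes with a mean of at least 50 reads and not in the other 8. The Log2FC of Fkbp5 was −1.05 (adjusted p = 0.0465), and the call was lost in 7 of 15 alternatives, among them those without NTG replicate 2 or without any 1 of the mNrf2-TG hearts. Stat3 signalling in the acute-phase response can also induce metallothioneins. Among Stat3 and acute-phase response genes, 2 of 11 were lower, which is 18.2% called beside 17.2% of all genes. They were Osmr, the oncostatin M receptor (Log2FC −1.04, adjusted p = 0.0167), and Lrg1 (Log2FC −0.73, adjusted p = 0.0083), and the median of the list was −0.51. DESeq2 called 6 of these 11 lower, and without mNrf2-TG replicate 17 or 19 only 1 was called.

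Catalase is carried into peroxisomes, and no gene of peroxisome assembly passed the main test. In edgeR, 0 of 17 tested Pex genes were called in either direction, beside 17.2% of all genes, and 3 had an unadjusted p under 0.05. DESeq2 and limma-voom also called 0. Their median Log2FC was 0.14. Pex5, the import receptor for catalase, had a Log2FC of 0.30 (adjusted p = 0.0925), and it was called higher without NTG replicate 3 (adjusted p = 0.0421). Of 27 other peroxisomal enzymes and transporters, 6 were higher and 1 was lower, which is 25.9% called beside 17.2% of all genes, with a median of 0.10. Acaa1b, a thiolase of fatty acid oxidation, rose by a Log2FC of 0.73 (adjusted p = 0.00481), Hacl1, of the breakdown of branched fatty acids, by 0.58 (adjusted p = 0.0149), and Decr2, of unsaturated fatty acid oxidation, by 0.48 (adjusted p = 0.039). Gnpat, of plasmalogen synthesis, was lower (Log2FC −0.23, adjusted p = 0.0475). Without any 1 of the mNrf2-TG hearts 3 genes of this list were called higher, and the calls of Decr2 and of Gnpat were each lost when 1 of 6 hearts was left out (adjusted p up to 0.13 for Decr2).

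Among factors known to act on Sod2 or Cat, 3 of 13 were lower and none was higher by edgeR's test. That is 23.1% called, beside 17.2% of all genes. Of these factors, 6 had an unadjusted p under 0.05 in that test in either direction, and the median Log2FC was −0.15. DESeq2 and limma-voom also called 0 of them higher, while 5 of the alternatives called 1. This was Sirt3, a mitochondrial deacetylase, with library totals, with either stricter filter or without NTG replicate 3 (adjusted p 0.0402 to 0.0495), and Ppargc1b, a coactivator related to Ppargc1a, without NTG replicate 4 (adjusted p = 0.0468). Ppargc1a, the coactivator of mitochondrial and antioxidant genes, had 4166, 5953, 7440 and 3296 normalized counts in NTG replicates 1 to 4 and 2946, 2034 and 1293 in mNrf2-TG replicates 17 to 19. All transgenic hearts were lower than all NTG hearts, with a Log2FC of −1.32 (adjusted p = 0.0184). Ppara, a receptor that induces fatty acid oxidation, was lower by a Log2FC of −0.70 (adjusted p = 0.00225), and Pparg by −0.47 (adjusted p = 0.0283). Without mNrf2-TG replicate 18 or 19 only 1 of these 3 was called.

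Of 11 tested other enzymes that remove peroxides, 7 were higher, beside 8.48% of all genes, and the other 4 were not called, with a median Log2FC of 0.46. Gpx3, the secreted glutathione peroxidase, had a Log2FC of 0.77 (adjusted p = 0.01), Prdx1, a cytosolic peroxiredoxin, 0.64 (adjusted p = 0.000311), and Prdx6, which reduces lipid peroxides, 0.61 (adjusted p = 0.00078). The Log2FC of Cat, 0.85, was above each of these. Of 14 textbook Nrf2 targets, 10 were higher, beside 8.48% of all genes, and the other 4 were not called, with a median Log2FC of 1.74. The largest were Srxn1, which repairs oxidized peroxiredoxins, at 3.79, the quinone reductase Nqo1 at 3.28 and the glutathione transferase Gstm1 at 3.23, so that Cat had a smaller change than the median of this list.

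**Figure D4:**
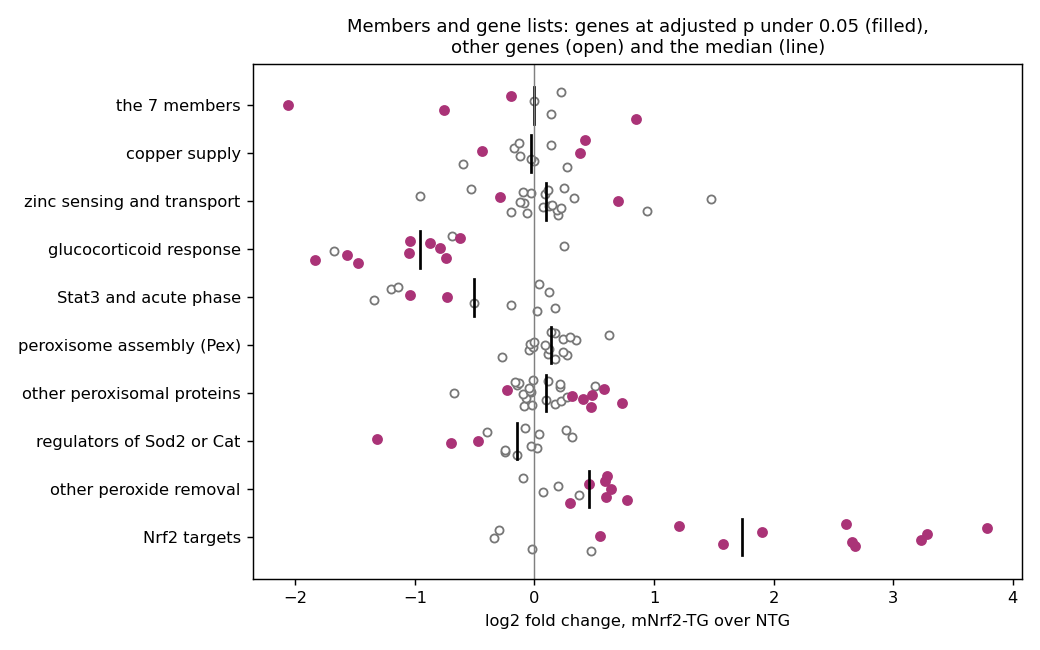
Log2FC of mNrf2-TG over NTG for each tested gene of the members and the 9 lists (filled: adjusted p under 0.05, lines: medians). The glucocorticoid list has the lowest median (−0.96) and the Nrf2 targets the highest (1.74), while the members spread from −2.06 (Mt2) to 0.85 (Cat).

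The genes whose pattern over the 7 hearts was most like that of each member were found by the root mean square difference of centred log2 values over 9666 other genes with a mean of at least 50 reads. For Cat these were P4htm (0.0577), Entpd5 (0.0789) and Galk2 (0.0976). For Mt1 they were Rhobtb1 (0.0880), Timp3 (0.140) and Sema3f (0.140), and for Mt2 Cyp1b1 (0.117), Cebpd (0.443) and Map3k6 (0.444). Cyp1b1, a cytochrome P450 gene, followed Mt2 closely, with 163, 271, 342 and 79.7 normalized counts in NTG replicates 1 to 4 and 48.4, 77.8 and 52.6 in mNrf2-TG replicates 17 to 19. The metallothioneins were not each other's nearest genes. Mt1 took rank 57 for Mt2, and Mt2 rank 8984 for Mt1, by a measure that includes the size of the change. The 3 nearest genes were Slc4a1ap, Rangap1 and Phactr2 for Sod1, Emc2, Eif4a1 and Chmp2a for Sod2, Enpp4, Gm17018 and Fads3 for Sod3, and Tmbim1, Ttc32 and Hprt for Ccs, with distances from 0.0258 to 0.0421.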

How the data were processed

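Stranded libraries of heart RNA, 1 per mouse, were read from a single end over 50 bases. Per the submitters' processing notes, reads were aligned with Novoalign 2.08.01 and compared with DESeq2 1.32.0. The methods name hg19 for the index and mm10 (GRCm38) elsewhere. The counting program is not given in the sources used here. The authors deposited counts per gene without normalization, and log2 values made from them by the rlog transformation of DESeq2. The authors' fold changes and p-values for mNrf2-TG against NTG were not used.

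Of 14665 entries, 24 that repeated an Entrez gene were dropped, which left 14641 genes, and the 14637 with a summed count above 1 were tested. Groups were taken from the genotype labels. Counts were scaled by TMM and compared in edgeR 4.0.16 (R 4.3.3) with the quasi-likelihood test, without covariates, with Benjamini-Hochberg adjustment over all genes tested. Standard errors are the Log2FC divided by the square root of F. Precision is limited by 4 and 3 hearts. Alternatives were DESeq2 1.42.0, limma-voom (limma 3.58.1), limma on the deposited rlog values, scaling by DESeq2 size factors or by library totals, other filters on low counts, and leaving out each heart. Ratios used counts plus 0.5 and an exact permutation test (scipy 1.17.1). Positions and exon lengths are from GENCODE M21 (GRCm38), since the authors' table positions were not used, and promoters from the RefSeq table (GRCm38.p6), which matched 5 of 7 members.

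The members and gene lists were chosen with earlier results of these data known. Named were all members, Nfe2l2, up to 3 called genes per direction and list with the largest Log2FC, 6 fixed genes (Mtf1, Slc30a1, Slc31a1, Atox1, Pex5 and Fkbp5) and the 3 genes nearest to each member. Herpud1 and Mt3, as neighbours of the metallothioneins, and Sirt3 and Ppargc1b were named after their values were seen, and the results of other neighbouring genes are not reported here.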

Additional observations from a re-analysis of the deposited data

Results flagged for a closer look

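Sod3 in the NTG hearts had 1 heart far from the others. NTG replicate 1 had 306 normalized counts and the other 3 hearts 277 to 279, so the gap to the nearest heart was 0.943 of the whole range, above Dixon's 95% critical value for 4 samples. Chance flags about 1 in 20 groups, and 12 groups were examined.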

How the results depend on the processing

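Over 15 alternatives, the Log2FC of the 6 members other than Sod1 kept its sign. That of Sod1, which was close to 0 and never called, took either sign, from −0.08 without NTG replicate 3 to 0.06 without NTG replicate 2. On the threshold, 92 of 105 member values stayed on the same side of the threshold. The other 13 were lost calls of Sod2 (8), Mt1 (3) and Mt2 (2), given with their hearts above. The count of called members was 4 and ranged from 1 to 3 when each heart was left out in turn, with 2 without NTG replicate 2, mNrf2-TG replicate 17 or mNrf2-TG replicate 18 and 1 (Cat) without mNrf2-TG replicate 19. Levels per kilobase in NTG moved with the length used. Sod2 was at 127 with the longest and with the principal transcript, Ccs at 13.6 with both, Sod1 at 331 and Mt1 at 489 with the principal transcript alone. The ratios had no test with a heart left out, and the log2 difference of Cat over Sod1 was then 0.76 to 0.91. Of 476 list counts by direction, 56 moved by more than 1.5 times, mostly counts of 0 to 3 genes, and the cause was not tested. No paired analysis was possible because the sample labels used here give no litter and pair no NTG heart with a transgenic heart. With 3 and 4 hearts, changes the size of the intervals of Sod1, Sod3 and Ccs could not be resolved.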
